A study of Mus musculus with 3 samples.

Results

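The neuronal-type genes *Gap43*, *Stmn2*, *Cdh2* and *Tmem255a* were followed through single-cell transcriptomes of adult mouse cardiac endothelium. They are 4 of the 27,994 genes in the count table and were chosen by their measured levels in the same cells, which earlier results had shown to be high in endothelial clusters. Their levels by cluster are therefore a description with no test, and all 4 genes had UMIs in each of the 7 clusters.

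The cells were endothelial cells sorted for GFP, CD31 and VE-cadherin and against PDGFRA from the hearts of GFP-transgenic mice aged 12 to 16 weeks. Some were sequenced at once (0 h), others after co-aggregation for 24, 48, 72 or 96 h. The partner cells were *Mesp1*der PSCs, PDGFRA+ stromal cells of the aorta–gonad–mesonephros region of the E11.5 embryo. Every culture held these PSCs and the cytokines interleukin-3, SCF and Flt3 ligand, and no culture without them was analysed here. Fresh cells and cells of all culture times were mixed in each of 3 pools, no time is recorded per cell, and the 3 libraries in the table cannot be tied to a pool, so the 9,562 cells were treated as 1 sample.

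The cells carried 252,339,042 UMIs (unique molecular identifiers, each standing for 1 captured transcript), with library medians from 13,440.5 to 38,312 UMIs per cell. Cluster 1 was the shallowest, with a median of 7,875 UMIs, against 14,061 in cluster 0 and 22,493 in cluster 2. Of all barcode sequences, 13 were found in more than 1 library. The 10 endothelial markers summed to 58.9, 61.1 and 42.4 UMIs per 10,000 in clusters 0, 1 and 2 and to between 4.72 and 7.89 in clusters 3 to 6. By their markers, the 728 cells of cluster 0 were led by arterial genes (*Gja5* at 5.09 UMIs per 10,000) and the 799 of cluster 1 by genes of adult heart capillaries (*Fabp4* at 65.0). The 5,396 cells of cluster 2 had *Aplnr* (3.84) and *Hapln1* (3.88). The 239 cells of cluster 3 had germ and pluripotency genes (*Dppa5a* at 24.6), the 518 of cluster 4 had mesenchymal genes (*Col1a1* at 5.58), the 1,572 of cluster 5 had macrophage and granulocyte genes (*C1qb* at 6.98) and the 310 of cluster 6 had megakaryocyte genes (*Pf4* at 167).

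*Gap43* encodes a membrane-bound protein of growing axon tips that acts on the actin cortex. *Stmn2* encodes a stathmin that binds tubulin in growing neurites and is a classical target of the repressor REST, which keeps neuronal genes low outside the nervous system. *Cdh2* encodes N-cadherin, an adhesion protein of neurons, muscle and mesenchyme that endothelial cells also make and use in their contacts with pericytes, while *Tmem255a* encodes a membrane protein whose role is little known.

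*Gap43* (ENSMUSG00000047261, GRCm38 chr16:42248442-42340651, minus strand) had its highest level in cluster 2. There the level was 1.91, 1.97 and 1.91 UMIs per 10,000 in libraries 1, 2 and 3, and 1.93 over all cells (95% counting interval 1.90 to 1.95). In cluster 0 it was 0.881, 0.914 and 1.03 by library and 0.943 over all cells, and in cluster 1 it was 0.177, 0.156 and 0.131 by library and 0.158 over all cells. The libraries did not overlap between these 3 clusters, and the level in cluster 2 was 2.04 times that in cluster 0 and 12.2 times that in cluster 1. Above 0.5 counts per 10,000 UMIs (CPTT), the threshold for a positive cell, lay 75.7% of cells in cluster 2 (74.5 to 76.8%, exact binomial interval), 46.2% in cluster 0 and 7.38% in cluster 1. With every cell thinned to 5,000 UMIs, at least 1 *Gap43* UMI was left in 51.8%, 27.0% and 3.76% of the cells of clusters 2, 0 and 1. The gene was thus widespread in cluster 2, where the median cell had 1.5 CPTT and the 10% of cells with most *Gap43* held 38.6% of its UMIs. Outside endothelium, cluster 4 had 0.687 UMIs per 10,000, and clusters 3, 5 and 6 had 0.206, 0.185 and 0.115. The order of clusters 3, 5 and 1 was within counting error.

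*Stmn2* (ENSMUSG00000027500, GRCm38 chr3:8509360-8561606, plus strand) was instead highest in cluster 0, the cluster of arterial genes. Its level there was 5.60, 4.67 and 6.88 UMIs per 10,000 in libraries 1, 2 and 3 and 5.75 over all cells (5.62 to 5.89). Cluster 0 held 7.61% of all cells and 37.4% of all *Stmn2* UMIs. The values in cluster 2 were 0.666, 0.689 and 0.633 by library, and 0.662 over all cells. Cluster 1 had 0.478, 0.910 and 1.81 by library and 0.996 over all cells, so its libraries overlapped with those of cluster 2 and had the widest ratio of highest to lowest of any gene of the 4 in clusters 0, 1 and 2. The macrophage markers of cluster 1 summed to 5.71, 5.10 and 0.920 UMIs per 10,000 in libraries 1, 2 and 3, and their part in this spread was not tested. Positive cells made up 75.0% of cluster 0, 24.0% of cluster 1 and 28.4% of cluster 2. Even in cluster 0 the gene was unevenly spread, with a median of 2.97 CPTT, a ninetieth percentile of 16.7 CPTT and 44% of UMIs in the top 10% of cells. Clusters 3, 5 and 6 had 0.118, 0.112 and 0.0706 UMIs per 10,000, and cluster 4 had 0.949, close to cluster 1 (ratio of cluster 1 to cluster 4 1.05, 0.959 to 1.15).

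*Cdh2* (ENSMUSG00000024304, GRCm38 chr18:16588877-16809246, minus strand) had nearly the same level in cluster 2 and in the mesenchymal cluster 4. Cluster 2 had 1.0, 1.22 and 1.05 UMIs per 10,000 by library and 1.09 over all cells (1.07 to 1.10), and cluster 4 had 1.05, 1.4 and 1.05 by library and 1.14 over all cells (1.08 to 1.20). The ratio of cluster 4 to cluster 2 was 1.05 (0.990 to 1.11), with overlapping libraries. Cluster 0 had 0.592, 0.723 and 0.480 by library, below every library of cluster 2, and cluster 1 had 0.108, 0.350 and 0.184. Positive cells were 47.1% of cluster 2, 59.3% of cluster 4, 35.7% of cluster 0 and 6.13% of cluster 1. In cluster 2 the 10% of cells with most *Cdh2* held 54.1% of its UMIs, against 39.6% in cluster 4. Equal levels therefore came from unlike distributions, with more cells without *Cdh2* and a stronger upper tail in the endothelial cluster.

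*Tmem255a* (ENSMUSG00000036502, GRCm38 chrX:38196573-38252439, minus strand) followed the endothelial clusters 0 and 2. Its level was 1.08, 1.25 and 1.08 UMIs per 10,000 by library in cluster 2 (1.14 over all cells), 0.795, 0.786 and 0.730 in cluster 0 (0.770) and 0.170, 0.226 and 0.162 in cluster 1 (0.180). All 3 libraries of cluster 2 lay above those of cluster 0, which in turn lay above those of cluster 1. In cluster 4, where the other 3 genes were well above the blood clusters, *Tmem255a* stayed at 0.0684, beside 0.0911, 0.0658 and 0.0928 for clusters 3, 5 and 6. Positive cells were 61.4% of cluster 2, 28.6% of cluster 0 and 5.21% of cluster 4. Its relative *Tmem255b* had 0.187, 0.152 and 0.00548 UMIs per 10,000 in clusters 0, 1 and 2, so the pair were both detected in cluster 0 and parted in cluster 2.

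**Figure D1:**
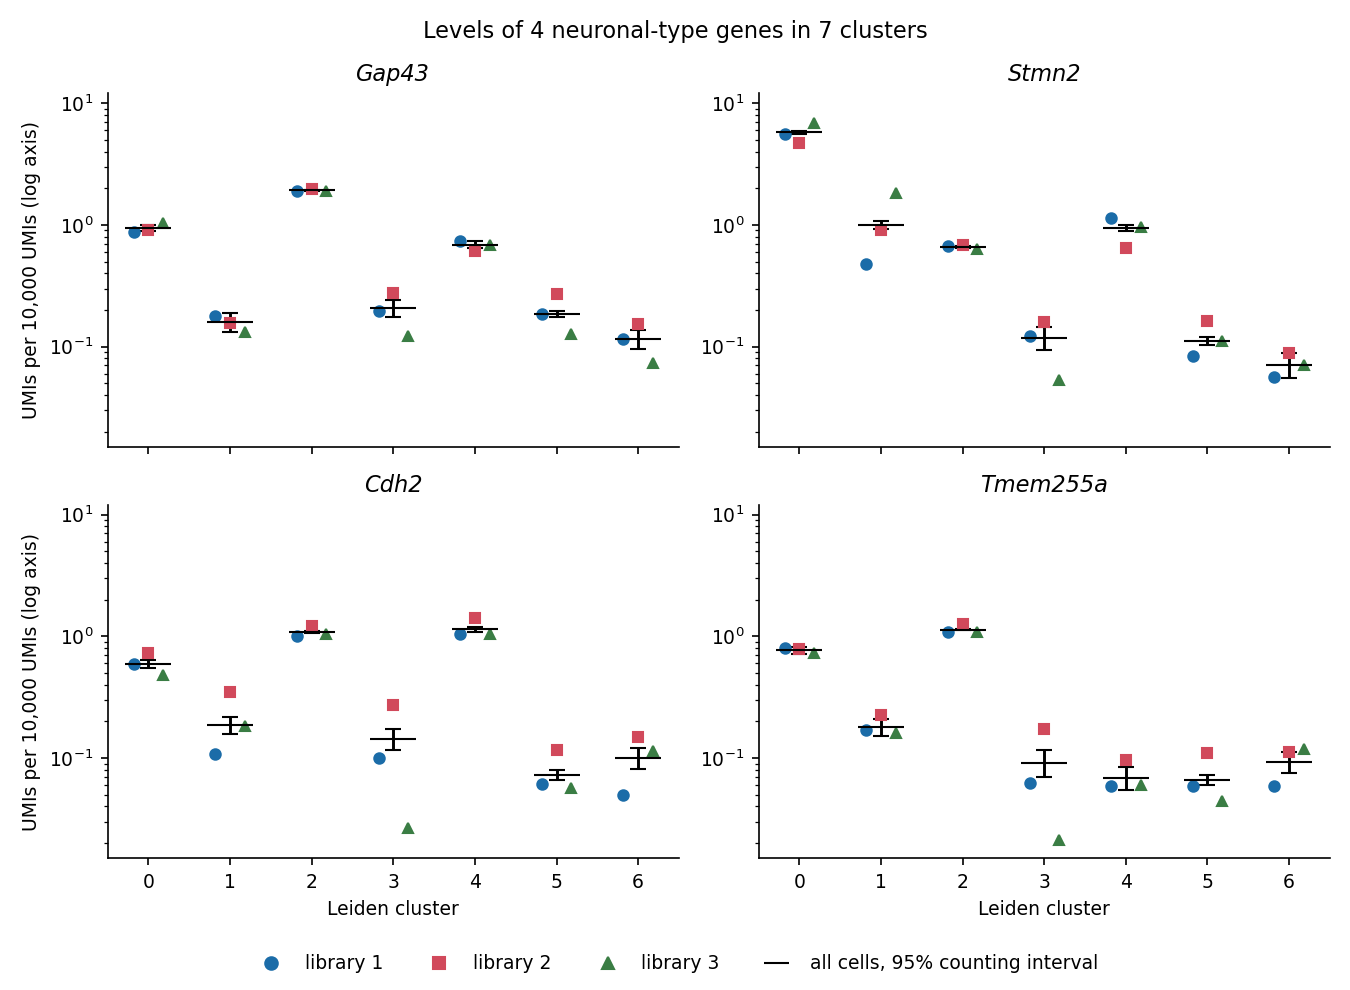
Level of each gene in UMIs per 10,000 UMIs (log axis) in the 7 Leiden clusters; coloured symbols are the 3 libraries, and black bars are all cells with the 95% counting interval. *Stmn2* peaks in cluster 0 at 5.75, *Gap43* (1.93) and *Tmem255a* (1.14) in cluster 2, and *Cdh2* is level between clusters 2 (1.09) and 4 (1.14).

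The RefSeq promoter of *Tmem255a* is shown because of the 4 genes it had the lowest level in the mesenchymal cluster and because it is the 1 member with an entry in the RefSeq promoter table used. The 250 bases before the RefSeq start (GRCm38.p6, chrX:38252482-38252731, minus strand) read, 5′ to 3′, with the single match to the core motif of ETS factors (AGGAAG) in capitals:

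Tmem255a: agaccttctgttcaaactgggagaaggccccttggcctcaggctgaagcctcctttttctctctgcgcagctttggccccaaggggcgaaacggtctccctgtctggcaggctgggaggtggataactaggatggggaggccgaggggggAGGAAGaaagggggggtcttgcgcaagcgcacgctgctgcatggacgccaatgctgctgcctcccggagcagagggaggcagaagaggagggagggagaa

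The match starts 100 bases before the start, on the gene's strand, and the same 6 letters on either strand were in 29.5% of 32,851 promoters of this length. No match to the left part of the RE1 element bound by REST (TTCAGCACC, in 0.301% of promoters), to the E-box CAGCTG (13.0%), to the SOX core ACAATG (10.7%) or to TATAAA (12.4%) was found on either strand. The window was 62.4% G and C and held 9 CpG dinucleotides, against medians of 52.4% and 6 over all promoters. A match is a description of letters and does not show binding.

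Clusters 0, 1 and 2 together were compared with the blood clusters 5 and 6 by the ratio of summed levels. A gene was called when it differed at least 2-fold and in the same direction in every library. All 4 genes were higher in the endothelial clusters, where 16.1% of the 8,887 genes tested were called higher, but the genes had been picked for this. *Gap43* had 1.76 against 0.175 UMIs per 10,000 (log2 ratio 3.33, 3.25 to 3.42), *Stmn2* 1.08 against 0.106 (3.35), *Cdh2* 1.0 against 0.0765 (3.71) and *Tmem255a* 1.06 against 0.0699 (3.92). Against clusters 3 and 4, where 9% of 9,223 genes tested were called higher, *Tmem255a* (log2 ratio 3.78) and *Gap43* (1.8) were called. *Stmn2* (0.76) and *Cdh2* (0.39) were higher in each of the 3 libraries without reaching 2-fold. Cluster 3, which was low in both (0.118 of *Stmn2* and 0.143 of *Cdh2*), was pooled here with cluster 4. Over all cells, cluster 4 alone had 0.949 of *Stmn2*, against 1.08 in the endothelial clusters together. It had 1.14 of *Cdh2*, more than the 1.0 of the endothelial clusters together.

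Within endothelium, *Gap43*, *Cdh2* and *Tmem255a* were called higher in cluster 2 than in cluster 1 (log2 ratios of 3.61, 2.55 and 2.66, with 10.4% of 9,191 genes called higher). *Stmn2* was not called, its log2 ratio being 0.48, −0.40 and −1.52 in libraries 1, 2 and 3, so its direction changed with the library. All 4 genes were called higher in cluster 0 than in cluster 1 (log2 ratios of 2.58, 2.53, 1.68 and 2.10 for *Gap43*, *Stmn2*, *Cdh2* and *Tmem255a*, with 11.1% of 9,347 genes called higher). Cluster 1, with its adult capillary genes, was thus the endothelial cluster poorest in *Gap43*, *Cdh2* and *Tmem255a*, although it had the highest summed level of the 10 endothelial markers. Between clusters 0 and 2, *Stmn2* was called higher in cluster 0 (log2 ratio 3.12, with 9.15% of 8,676 genes called higher) and *Gap43* lower (−1.03, with 2.77% called lower). *Cdh2* (−0.87) and *Tmem255a* (−0.56) were lower in every library without reaching 2-fold. Of the arterial genes, 9 of 9 tested were called higher in cluster 0 than in cluster 2, with a median log2 ratio of 2.83. Cluster 0 had been named by arterial genes from the same counts, so this result was built in. It is no independent evidence for an arterial identity or for a link of *Stmn2* to it. In cluster 2, 7 of the 9 reached the minimum level for testing, and the others could not be called lower in cluster 0.

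Low counts of these genes in blood cells were set beside *Cdh5*, the VE-cadherin gene, since free RNA from 1 source keeps its genes in 1 ratio. *Cdh5* itself had 0.640, 0.562, 0.585 and 0.503 UMIs per 10,000 in clusters 3, 4, 5 and 6, against 4.29 to 9.93 in clusters 0 to 2. Per 100 *Cdh5* UMIs, *Gap43* had 10.1, 1.59 and 44.9 UMIs in clusters 0, 1 and 2 and 32.2, 31.6 and 22.9 in clusters 3, 5 and 6. *Stmn2* had 61.9, 10.0 and 15.4 in the endothelial clusters and 18.4, 19.1 and 14.0 in clusters 3, 5 and 6. For each of the 4 genes the ratios in clusters 3, 5 and 6 lay between the lowest and the highest endothelial ratio. In cluster 4 they lay far above it for *Gap43* (122), *Stmn2* (169) and *Cdh2* (203), and within it for *Tmem255a* (12.2). In clusters 3 and 5, library 2 had the highest level of all 4 genes, with for example 0.274 UMIs per 10,000 of *Cdh2* in cluster 3 against 0.0999 and 0.0267 in libraries 1 and 3. The part of free RNA in these low levels was not tested. Positive cells in the blood clusters 5 and 6, whose median depths were 36,065.5 and 32,186 UMIs, were 13.9% and 10.6% for *Gap43*, 8.46% and 7.10% for *Stmn2*, 6.93% and 8.06% for *Cdh2* and 6.42% and 9.68% for *Tmem255a*. The shares of cluster 1 for *Gap43* (7.38%), *Cdh2* (6.13%) and *Tmem255a* (7.76%) were at or below the higher of these, in cells of lower depth. At 5,000 UMIs per cell they were 3.76%, 4.03% and 5.5%, against 5.83%, 6.15% and 5.5% in cluster 6. The levels of *Cdh2* (0.185 against 0.0993 UMIs per 10,000) and *Tmem255a* (0.180 against 0.0928) were higher in cluster 1 than in cluster 6 in every library, so shares and levels differ and no order of cluster 1 and blood is read from the shares. *Stmn2* in cluster 1, at 24.0%, and all 4 genes in clusters 0 and 2 stood above the blood clusters.

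The 20 neuron markers, which include the neuronal tubulin gene *Tubb3*, the RNA-binding *Elavl* genes and the neurofilament genes *Nefl* and *Nefm*, did not accompany the 4 genes in endothelium. None of the 20 reached 0.1 UMIs per 10,000 in cluster 0, 1 or 2, a level reached there by 30%, 30.8% and 28.2% of all genes. Their summed level was 0.145, 0.0999 and 0.182 UMIs per 10,000 in clusters 0, 1 and 2, and the highest single values were *Snap25* at 0.053 in cluster 0, *Rbfox3* at 0.041 in cluster 2 and *Tubb3* at 0.037 in cluster 1. In cluster 4, by contrast, 10 of 20 reached 0.1 (31.6% of all genes did), led by *Tubb3* (1.47), *Nefm* (1.23) and *Nefl* (0.683). Cluster 3 had 2 of 20 (27.2% of all genes), *Elavl2* at 0.848 and *Chga* at 0.146. Of 9 glia and neural crest markers, 4 reached 0.1 in cluster 4 (31.6% of all genes did), among them *Erbb3* (0.171), *Sox10* (0.133) and *Foxd3* (0.132). In each of clusters 3, 5 and 6, 1 of the 9 did (27.2%, 27.8% and 27% of all genes).

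**Figure D2:**
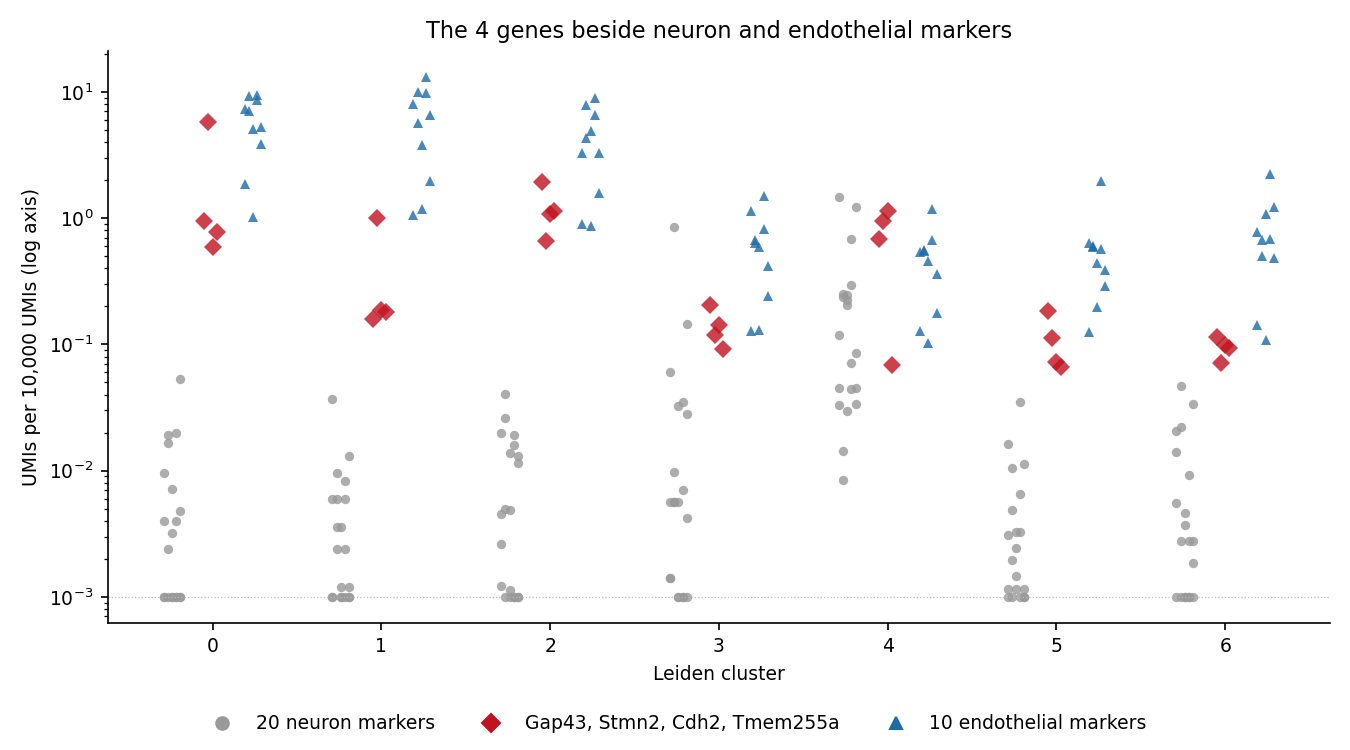
Level in UMIs per 10,000 UMIs (log axis) of 20 neuron markers (grey), the 4 genes (red) and 10 endothelial markers (blue) in each cluster, with levels under the dotted line drawn on it. The neuron markers stay at or below 0.053 in clusters 0 to 2 and reach 1.47 in cluster 4.

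Relatives of the 4 genes were not confined to endothelium. *Stmn1*, the broadly expressed stathmin, had 9.82, 2.18 and 10.3 UMIs per 10,000 in clusters 0, 1 and 2 and 12.8 in cluster 4, while the neuronal *Stmn3* and *Stmn4* had 0.236 and 0.245 in cluster 4 and at most 0.00951 in clusters 0 to 2. *Basp1*, which encodes a membrane protein much like GAP43 in its action, had 3.05, 1.27 and 3.76 in clusters 0, 1 and 2 and 5.88 in cluster 4. Among the other cadherins, *Cdh11* (1.24) marked cluster 4, *Cdh13* (1.59) marked cluster 1, and *Cdh1*, *Cdh3*, *Cdh4* and *Cdh6* stayed at or below 0.019 in clusters 0 to 2. The 4 catenin genes, whose proteins bind cadherin tails, were all called higher in endothelial than in blood clusters (16.1% of all genes were), and 1 of the 4 was called higher than in clusters 3 and 4 (9% of all genes were), *Ctnnb1* having 7.96, 6.86 and 5.50 in clusters 0, 1 and 2.

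Genes of axon guidance that vessels share with neurons were higher in the endothelial clusters than in blood, but not uniformly higher than in clusters 3 and 4. Of 22 such genes, 14 were tested against the blood clusters, with 13 called higher and 1 lower, where 16.1% of all genes tested were called higher and 9.74% lower. Their median log2 ratio was 3.21, against 0.05 over all genes tested. A gene was tested at 0.1 UMIs per 10,000 in the higher group. Of the 22 genes, 5 reached that level in cluster 5 and 5 in cluster 6, against 17, 15 and 14 in clusters 0, 1 and 2. Genes tested only through the endothelial clusters could not be called lower. *Efnb2*, *Sema3g* and *Unc5b* of this list are also on the arterial list. Against clusters 3 and 4, 9 of 19 tested were called higher and 6 lower, where 9% and 11% of all genes were. *Nrp1*, a receptor for semaphorins and VEGF, had 12.2, 5.56 and 2.85 UMIs per 10,000 in clusters 0, 1 and 2, and *Plxnd1* had 3.66, 2.96 and 3.49, while *Dcc*, the netrin receptor of axons, had 0 UMIs in clusters 0 and 1 and 2 UMIs in cluster 2. *Rest* was detected in every cluster, with 1.56, 0.958 and 1.09 UMIs per 10,000 in clusters 0, 1 and 2, 3.87 in cluster 3, 1.38 in cluster 4, and 0.765 and 0.620 in clusters 5 and 6. None of the 7 genes of the REST complex was called between endothelial and blood clusters.

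In cluster 4 most *Stmn2* lay in a small group of cells. Of its 512 cells with at least 5,000 UMIs, 29 (5.66%) had UMIs of at least 3 of the 20 neuron markers, a split made after the values had been seen. These 29 cells held 78.7% of the *Stmn2* UMIs of the cluster, at 14.0 UMIs per 10,000 against 0.228 in the other 483 cells. By library the contrast was 12.8 against 0.228, 10.7 against 0.213 and 19.5 against 0.250, from 12, 9 and 8 such cells. *Gap43* differed less, at 3.93 against 0.542, and 30.3% of its UMIs lay in the 29 cells. *Cdh2* had 2.69 against 1.17, with 12.1% of its UMIs there, and *Tmem255a* had 0.0690 against 0.0745, which rests on 1 UMI in the 29 cells. The 29 cells had less of *Cdh5* (0.138 against 0.600), *Pecam1*, the CD31 gene (0.138 against 0.547), *Col1a1* (0.690 against 4.90) and *Rest* (0.621 against 1.59) than the others. In the 29 cells the levels of *Cdh5* and *Pecam1* rest on very few UMIs. All cells had been sorted for CD31 and VE-cadherin, and what the 29 cells are was not tested. Cells of this kind were 0 of 722 in cluster 0, 1 of 745 in cluster 1 and 9 of 5,377 in cluster 2.

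**Figure D3:**
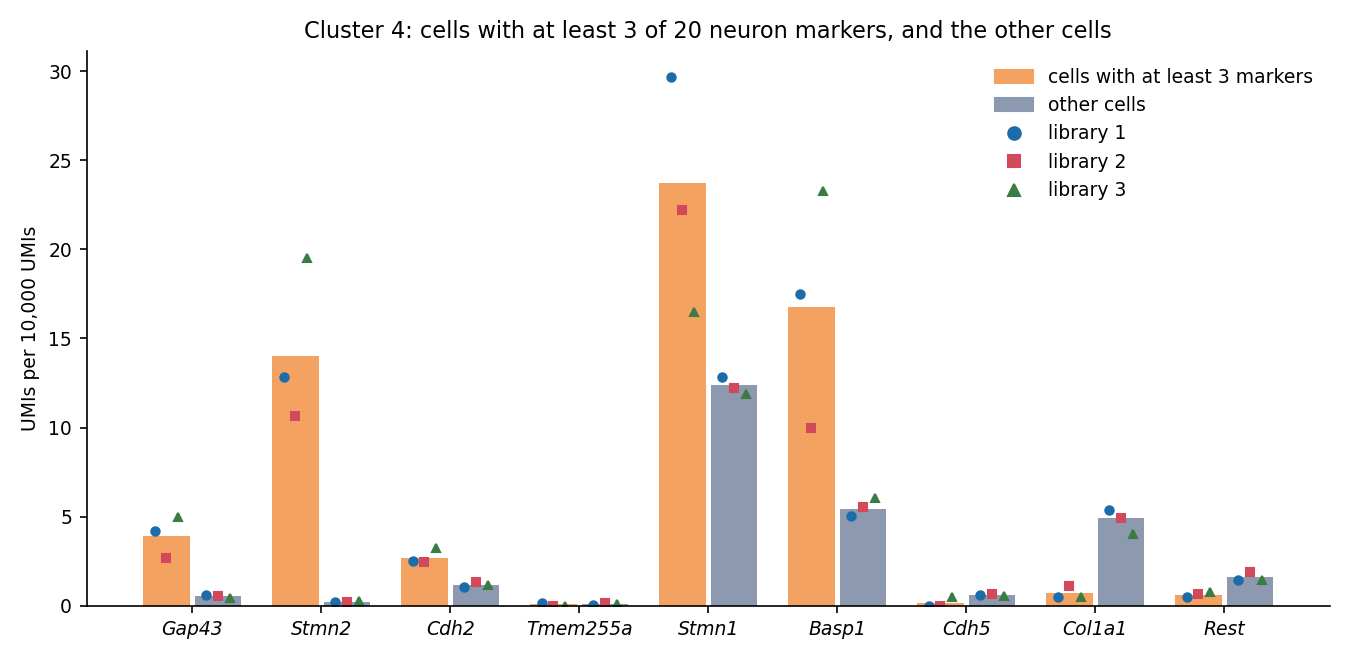
Cluster 4: level in UMIs per 10,000 UMIs of the 4 genes and 5 others in the 29 cells with at least 3 neuron markers (orange) and the other 483 cells (grey), at 5,000 UMIs per cell; symbols are libraries. *Stmn2* stands at 14.0 against 0.228 and *Col1a1* at 0.690 against 4.90.

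How many of the 4 genes a cell carried was counted at 5,000 UMIs per cell. The arterial cluster 0 had at least 1 of them in 83.5% of its cells and cluster 2 in 85.6%, whereas clusters 1, 3, 4, 5 and 6 gave 27.7%, 29.3%, 50.2%, 17.8% and 17.2%. At least 2 were found in 39.5% and 43.8% of the cells of clusters 0 and 2, and all 4 in 0.831% and 0.763%. Cells with exactly 1 of the 4 were the most frequent kind in both clusters, at 44% and 41.9%. Within cluster 2, *Cdh2* was less frequent in cells with *Gap43* than in cells without it. *Cdh2* was found in 24.3% of the 2,784 cells with *Gap43* (22.7 to 26.0%) and in 37.6% of the 2,593 cells without it (35.7 to 39.5%). By library the shares were 21.8 against 36.6%, 28.2 against 38.9% and 19.7 against 36.6%. This was not particular to *Gap43*. *Cdh2* was also found in 24.2% of cells with *Stmn2* against 32.3% without, and in 27.6% with *Tmem255a* against 32.8% without. Both directions held in every library. *Stmn2* was more frequent beside *Gap43*, in 21% against 16.9% of cells, and *Tmem255a* was found in 40.3% against 38.6%, with overlapping intervals. In cluster 4, *Stmn2* was found in 28.8% of the 80 cells with *Gap43* and in 5.56% of the 432 cells without it.

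To see which other genes went with each, the 5,377 cells of cluster 2 at 5,000 UMIs were split by whether the gene had a UMI. Other genes were called when they differed at least 1.5-fold and in the same direction in every library, so a library without UMIs of a gene prevented its call. With *Cdh2*, 1,652 cells against 3,725, 211 of 8,228 genes tested were higher (2.56%) and 70 lower (0.851%). The 5 largest ratios were those of *Mfsd2a*, a lipid transporter of the blood–brain barrier (log2 ratio 4.48), *Spock2* (3.98), *Stra6*, a retinol transporter (3.96), and the transcription factor genes *Foxq1* (3.81) and *Foxf2* (3.73). *Foxq1* had 0.686 against 0.049 UMIs per 10,000, with log2 ratios of 3.79, 3.82 and 3.79 in libraries 1, 2 and 3. Lower were *Hba-a1* (−1.76, with 29.3% of its UMIs in 1 cell), *Prox1*, the master factor of lymphatic vessels (−1.57), *Lyve1* (−1.47), *Gpr182* (−1.37) and *Mbnl3* (−1.32).

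These names led to lists of genes known from brain, liver sinusoidal and lymphatic endothelium, chosen after the values had been seen. Of 16 brain genes, 10 were tested and 9 were higher in *Cdh2*-positive cells, but 5 of these are the genes just named, which prompted the list. Of the other 5 tested, 4 were higher, namely *Itm2a*, the glucose transporter gene *Slc2a1* (5.25 against 2.60 UMIs per 10,000), the amino acid transporter gene *Slc7a5* (0.232 against 0.043) and *Lef1*, a factor of WNT signalling (0.985 against 0.442). The 5 named genes and *Slc7a5* were under the minimum of 0.1 in cells without *Cdh2*. They were therefore tested only through the positive cells, and their being higher was fixed by that minimum. Of the genes named as lower, *Hba-a1*, *Prox1*, *Gpr182* and *Mbnl3* were under 0.1 in cells with *Cdh2*, so their direction was fixed too. List genes and genes ranked by their ratio that were under 0.1 on 1 side of any split are limited in the same way. Of 14 liver sinusoidal genes, 7 were tested, and without *Gpr182* and *Lyve1*, named above, 3 of 5 were lower (*Ehd3*, *Maf* and *Stab2*) and *Clec1b* was higher. Of the lymphatic genes, *Prox1* and *Lyve1* were lower and the other 2 tested were not called. *Gap43* itself was lower in *Cdh2*-positive cells (1.34 against 2.01, log2 ratio −0.59).

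With *Gap43*, 2,784 cells against 2,593, 16 of 8,177 genes tested were higher (0.196%) and 83 lower (1.02%). Highest was *Hbb-bs* (log2 ratio 4.5, with 54.1% of its UMIs in 1 cell), followed by *Oit3* (1.72), *Ehd3* (1.52), the transcription factor gene *Maf* (1.03) and *Gpr182* (0.95). Lowest were *Spock2* (−2.62), *Stra6* (−2.59), *Htra3* (−2.07), the integrin gene *Itga4* (−2.01) and *Foxq1* (−1.98). Without library 2, 36 genes were higher. The brain and sinusoidal lists hold several of these names. Without *Spock2*, *Stra6* and *Foxq1*, 3 of 5 brain genes tested were lower (*Itm2a*, *Slc2a1* and *Slc7a5*) and 0 higher. Without *Oit3*, *Ehd3*, *Maf* and *Gpr182*, 1 of 4 sinusoidal genes tested was higher (*Stab2*) and 0 lower. *Spock2*, *Stra6* and *Foxq1* were thus higher beside *Cdh2* and lower beside *Gap43*, and *Gpr182* the reverse, in every library.

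With *Stmn2*, 1,022 cells against 4,355, 98 of 8,194 genes tested were higher (1.2%) and 30 lower (0.366%). The connexin gene *Gja5* of arteries had the largest ratio (0.202 against 0.045 UMIs per 10,000, log2 ratio 2.16), followed by *Col13a1* (1.94), *Adgrg6* (1.51), *Ceacam1* (1.38) and *Entpd1* (1.34). Lower were *Itga4* (−1.34), the carbonic anhydrase gene *Car2* (−1.17), *Prox1* (−1.07), *Tgfbi* (−1.05) and *Enpp2* (−0.84). *Gja5*, *Col13a1*, *Adgrg6* and *Ceacam1* were under 0.1 in cells without *Stmn2*, and *Itga4*, *Prox1* and *Enpp2* in cells with it. Their directions were therefore fixed by the minimum. Of the arterial genes, 2 of 8 tested were higher. Without library 2, 165 genes were higher and 94 lower, and without library 1, 57 were lower.

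With *Tmem255a*, 2,123 cells against 3,254, 58 of 8,168 genes tested were higher (0.71%) and 72 lower (0.881%). The largest ratios were those of *Ssu2* (1.92), the chemokine receptor gene *Cxcr4* (1.67), *Igfbp3* (1.38), *Kcne3* (1.17) and *Madcam1* (1.13). *Igfbp3* was the most abundant of them, with 2.47 against 0.950 UMIs per 10,000. Lower were *Spock2* (−1.74), *Tll1* (−1.59), *Adgrg6* (−1.5), *Prox1* (−1.49) and the endothelin gene *Edn1* (−1.48). *Ssu2*, *Cxcr4* and *Madcam1* were under 0.1 in cells without *Tmem255a*, and *Spock2*, *Tll1*, *Adgrg6* and *Prox1* in cells with it. Their directions were therefore fixed by the minimum. The arterial genes gave 5 higher and 1 lower of 8 tested, and the tip-cell and angiogenic genes gave 4 higher and 0 lower of 11 tested. Without library 2, 89 genes were higher. *Adgrg6* was higher beside *Stmn2* and lower beside *Tmem255a*, whereas *Prox1* was lower beside *Stmn2*, *Cdh2* and *Tmem255a* and was not called beside *Gap43*.

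**Figure D4:**
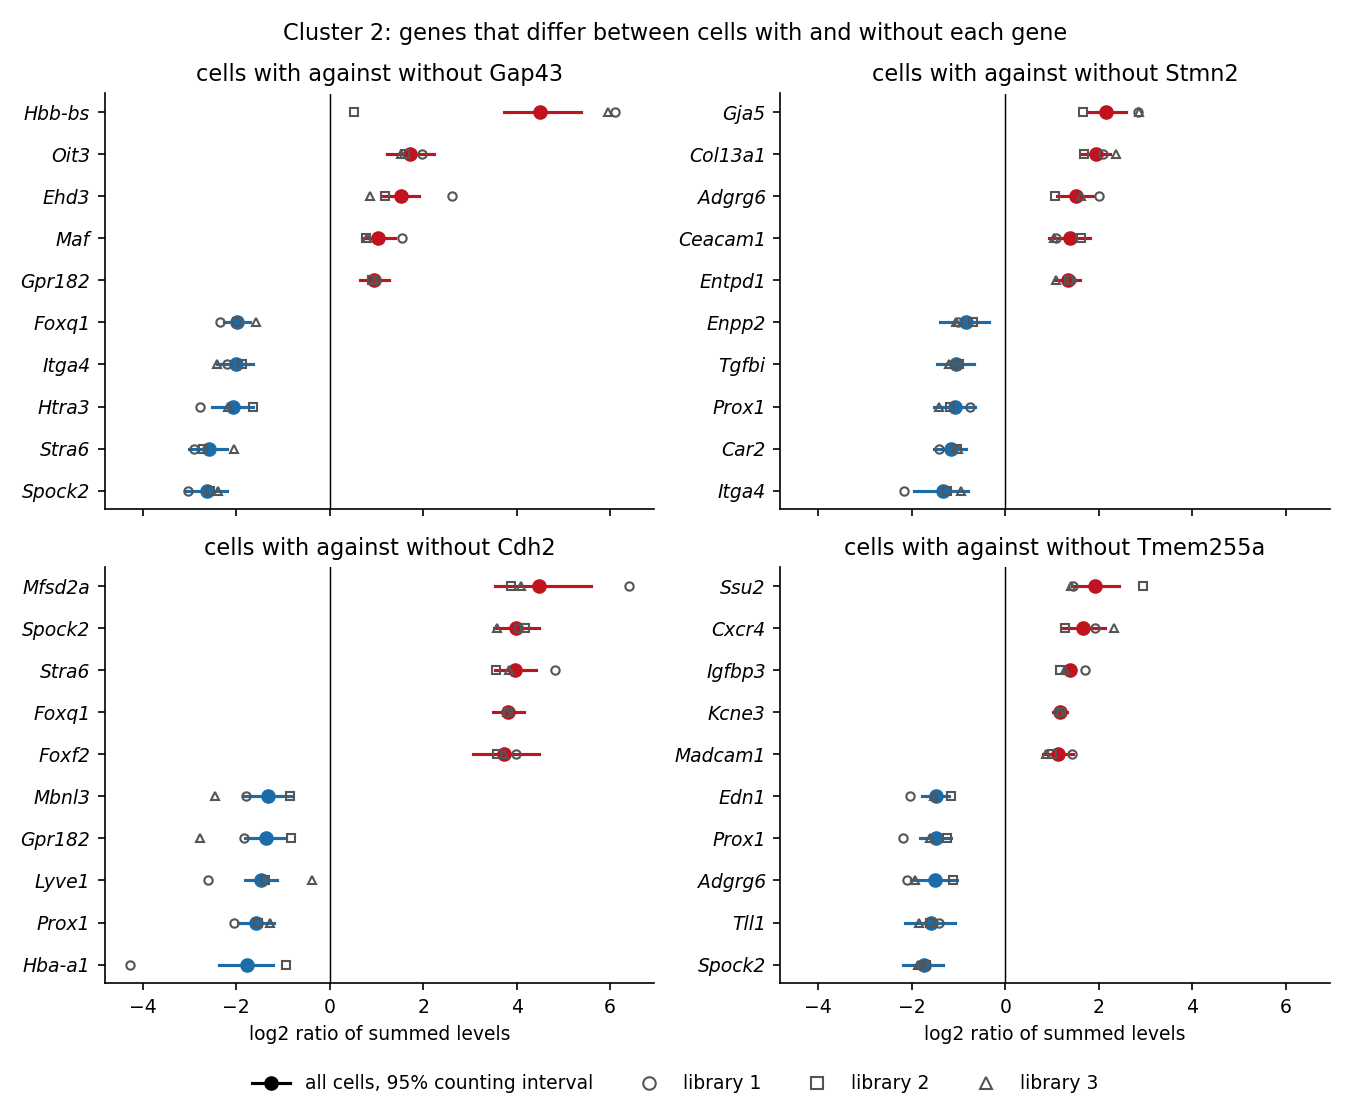
Cluster 2: log2 ratio of the summed level in cells with against cells without each gene, for the 5 called genes most raised and the 5 most lowered beside it; bars are 95% counting intervals and open symbols are libraries. *Foxq1*, *Spock2* and *Stra6* lie right of 0 for *Cdh2* and left of 0 for *Gap43*.

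The same counts were also read from the other side, which is no independent evidence, by splitting cluster 2 on genes that the *Cdh2*, *Gap43* and *Stmn2* comparisons had named. The 426 cells with *Foxq1* had 4.97, 4.99 and 4.64 UMIs per 10,000 of *Cdh2* in libraries 1, 2 and 3, against 0.831, 0.907 and 0.803 in the 4,951 cells without it. Over all cells these were 4.91 against 0.858 (log2 ratio 2.52, 2.41 to 2.62), and *Cdh2* was found in 82.6% against 26.3% of cells. *Gap43* ran opposite, with 0.631, 0.606 and 0.591 against 1.8, 2.0 and 1.88 by library (log2 ratio −1.64, −1.90 to −1.39). *Tmem255a* was lower as well (0.643 against 1.29), *Stmn2* slightly lower (0.498 against 0.731), and *Cdh5* had 4.38 against 4.57. In cluster 0 the 76 cells with *Foxq1* had 1.58 against 0.455 of *Cdh2* and 0.553 against 0.879 of *Gap43*.

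The 586 cells of cluster 2 with a UMI of *Oit3*, *Gpr182* or *Lyve1* had 2.30 against 1.74 UMIs per 10,000 of *Gap43* and 0.464 against 1.27 of *Cdh2*, both in the same direction in every library. The 145 cells with *Gja5* had 2.27, 2.17 and 2.57 of *Stmn2* by library, against 0.660, 0.683 and 0.662 in the rest, so that no library overlapped. *Tmem255a* had 1.75 against 1.23 there, but its libraries were not alike, with log2 ratios of 1.12, 0.03 and 1.10. *Gap43* (1.59 against 1.81) and *Cdh2* (1.03 against 1.18) had log2 ratios whose intervals included 0. Cells with the proliferation genes *Mki67* or *Top2a* were 4,052 of 5,377 and had less *Cdh2* than the rest (1.03 against 1.63), less *Stmn2* (0.665 against 0.859) and more *Gap43* (1.88 against 1.58).

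**Figure D5:**
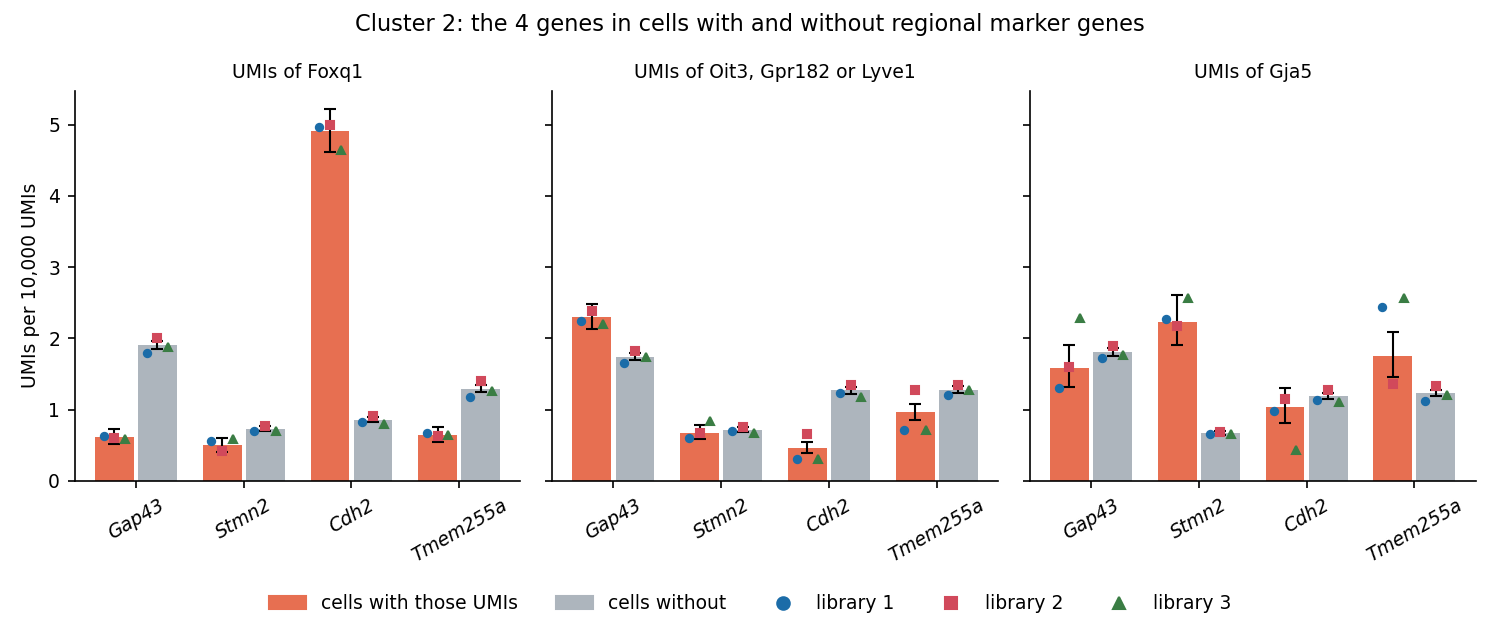
Cluster 2: level of the 4 genes in UMIs per 10,000 UMIs in cells with (red) and without (grey) UMIs of *Foxq1*, of *Oit3*, *Gpr182* or *Lyve1*, and of *Gja5*; bars carry 95% counting intervals and symbols are libraries. *Cdh2* stands at 4.91 against 0.858 in the first panel and *Stmn2* at 2.23 against 0.670 in the third.

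In cluster 1, where *Stmn2* was found in 136 of 745 cells, its neighbours could also be described. Higher were 11.2% of 9,209 genes tested and lower 10.7%. Of the adult heart capillary genes, 9 of 10 tested were higher in *Stmn2*-positive cells (median log2 ratio 1.39), and of the arterial genes 7 of 9 were (0.97). Libraries 1, 2 and 3 gave 36, 37 and 63 positive cells and 303, 142 and 164 negative cells. The capillary genes of cluster 1 summed to 79.7, 76.6 and 106 UMIs per 10,000 in these libraries. The part of library make-up in the size of the pooled ratios was not tested. Macrophage genes were lower in 4 of 5 tested, summing to 0.412 against 3.09 UMIs per 10,000, and their part in the other ratios was not tested. *Tmem255b* had 0.588 against 0.089. *Gap43*, *Cdh2* and *Tmem255a* were found in 28, 30 and 41 cells of cluster 1, and their partners are not described.

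The genes whose levels were most like those of each gene were sought over 21 units, the 7 clusters in each of the 3 libraries, among 3,060 genes. The units share libraries, and the coefficients are a description of log2 levels. *Asb4* (r = 0.94), *Tmsb10*, *Mest*, *Peg10* and *Slc39a10* were most like *Gap43*, and *Tead2* (0.96), *Asb4*, *Myh10*, *Peg10* and *Mlf2* most like *Cdh2*. For *Stmn2* they were *Fam198b* (0.97), *Tpt1*, *Tacc2*, *Mecom* and *Ptgis*, and for *Tmem255a* *Klhl4* (0.95), *Plvap*, *Abhd17a*, *Cmtm8* and *Hapln1*. *Asb4* had 0.922, 0.260 and 1.39 UMIs per 10,000 in clusters 0, 1 and 2 and 1.04 in cluster 4, a pattern close to both *Gap43* and *Cdh2*. *Plvap*, a gene of fenestrated endothelium, had 13.1, 2.26 and 7.36 in clusters 0, 1 and 2 and 0.566 in cluster 4, the low value that *Tmem255a* also had there. *Fam198b* had 1.17 in cluster 0, 0.455 in cluster 1 and 0.153 in cluster 2. Among themselves, *Gap43* and *Cdh2* had r = 0.87 and *Gap43* and *Tmem255a* 0.80, while *Stmn2* had 0.61, 0.64 and 0.63 with *Gap43*, *Cdh2* and *Tmem255a*. The 4 genes had been picked by their levels in these clusters, so high coefficients among them are in part built in. *Gap43* had 0.687 in cluster 4 against 1.93 in cluster 2, whereas *Cdh2* had 1.14 against 1.09. Within cluster 2, *Cdh2* was less frequent in cells with each of the other 3 genes than in cells without it.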

How the data were processed

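Adult cardiac endothelium of 3 pools was sequenced on the 10x Genomics 3′ platform (version 3 chemistry). The authors aligned reads to mm10 (GRCm38) with Cell Ranger 3.1.0 and aggregated runs with batch-effect removal, and per the labels Seurat 3.1.5 was among their tools. The deposited values used are raw UMI counts per Ensembl gene and cell, made by the authors without normalization. The deposited cluster numbers were made by the authors by Leiden clustering in scanpy 1.8.2 from the same counts. The deposited natural log (ln) values and UMAP coordinates were not used. Doublets were not searched for here, since the study's methods state that singlets were kept. Of 9,562 cells, 90 had under 5,000 UMIs, the minimum those methods state, and they were left out wherever cells were thinned.

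Of 27,998 identifiers, 27,645 were named from GENCODE M21, and summing equal names left 27,994 genes. Levels are UMIs of a gene per 10,000 UMIs of the group of cells, and CPTT is the same per cell. Intervals are exact Poisson for levels, exact Clopper-Pearson for shares and exact conditional binomial for ratios, at the 95% level, and cover counting error and not animals or cultures. For splits and co-detection, 5,000 UMIs were drawn per cell (random seed 1). Genes entered a comparison at 0.1 UMIs per 10,000 in the higher group, and for a gene at 0 on one side 3 UMIs were taken. Likeness is Pearson's r of log2(level + 0.1) among genes reaching 1 UMI per 10,000 in some cluster. With 1 sample no test was run and no P values are given. The calculation of ratios was checked on simulated counts with known folds between random sets of cells. The simulation had no clusters and no split by a gene's own UMIs, so it does not check those comparisons. Python 3.11.15, numpy 2.4.6, scipy 1.17.1, pandas 2.3.3 and matplotlib 3.10.9 were used.

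The 4 genes, the 23 marker and pathway lists and the rules of naming were chosen with earlier results of these data known. Named are the 4 genes, members of the lists, the 5 genes most like each and the 5 largest ratios in each direction of each split of cluster 2. Alternatives changed the threshold, the depth, the fold, the minimum level, the random seed, the summary (mean CPTT), the likeness measure, the cells of highest depth and the libraries included. Some items are not reported here. RefSeq gave the promoter sequence, for 1 of the 4 genes.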

Additional observations from a re-analysis of the deposited data

How the results depend on the processing

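All 4 genes were higher in clusters 0 to 2 together than in each of clusters 3, 5 and 6 by level and by share. This held under each alternative run, namely mean CPTT, thresholds of 0 and 1 CPTT, thinning and another seed. It also held without the 5% of cells with the most UMIs and without each library in turn. The genes had been picked for high levels in endothelial clusters, so this is no independent evidence for that pattern. Cluster 4 was not part of this comparison. There *Cdh2* had a higher level (1.14) than in clusters 0 to 2 together, and a larger share of positive cells than in any of them. Its level was nearly that of cluster 2 (1.09), where it was highest among clusters 0 to 2. The pooled group also does not speak for cluster 1, which had 0.158 of *Gap43*, beside 0.206 and 0.185 in clusters 3 and 5.

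Against the blood clusters, 1,428 genes were higher and 866 lower, and these became 766 and 487 at 4-fold, 269 and 158 at a minimum of 1 UMI per 10,000 and 3,837 and 2,504 with no minimum. Without each library in turn they ranged from 1,388 to 1,438 and from 844 to 879. Against clusters 3 and 4, 830 were higher and 1,017 lower, and at 4-fold 314 and 567, with ranges of 814 to 840 and 1,008 to 1,039 without each library.

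In the splits of cluster 2, with at least 2 UMIs for a positive cell the genes higher and lower were 36 and 148 for *Gap43*, 260 and 157 for *Stmn2*, 508 and 196 for *Cdh2* and 190 and 168 for *Tmem255a*. At a minimum of 1 UMI per 10,000 they were 0 and 8, 6 and 1, 20 and 4, and 7 and 0, in the same order. At 10,000 UMIs per cell they were 26 and 165 for *Gap43*, and for *Stmn2* 15 were lower. Without each library in turn, when only 2 libraries must share a direction, *Gap43* gave 16 to 36 higher and 93 to 122 lower, *Stmn2* 117 to 165 and 44 to 94, *Cdh2* 204 to 272 and 71 to 92, and *Tmem255a* 51 to 89 and 61 to 105. In alternatives chosen after seeing the data (another seed, 10,000 UMIs and without each library), the 9 brain genes higher beside *Cdh2* were 8 or 9, the 6 lower beside *Gap43* were 6 to 9, the 5 sinusoidal genes higher beside *Gap43* were 3 to 6 (each list with the genes that prompted it), and the share of cluster 4 *Stmn2* UMIs in neuron-marker cells was 75.3 to 83.9%. For *Stmn2* in cluster 1, 1,033 genes were higher and 985 lower, with 592 higher at 10,000 UMIs, 284 and 194 at a minimum of 1 UMI per 10,000, and ranges without each library of 1,393 to 1,478 and 1,304 to 1,451.

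In cluster 2, the second gene was more frequent in cells with the first than without it for 3 of the pairs of genes, those without *Cdh2*, and for 1 pair at 10,000 UMIs per cell. *Cdh2* was less frequent beside *Gap43* there too, and without the 5% of cells with the most UMIs. Of the 5 genes most like each gene, Spearman's coefficient kept 1 for *Gap43*, *Stmn2* and *Tmem255a* and 2 for *Cdh2*, a minimum of 0.1 UMIs kept 2 for *Gap43* and *Tmem255a* and 3 for *Cdh2*, and adding 0.01 kept 3 for *Tmem255a*. Without each library in turn 3 to 5 were kept for each gene. The cause of each change was not tested. No paired analysis was possible because the 3 pools form 1 group and cells could not be traced to them.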
